A study of Homo sapiens with 39 samples.

Results

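MALAT1, NEAT1, KCNQ1OT1 and FTX are long noncoding RNAs (lncRNAs) known as nuclear, and they were followed here in 3 kinds of measurement around the splicing factor U2AF1. Whether they were retained in the nucleus of these cells was not tested. The 4 genes were taken by exact symbol, 4 of 21530 symbols in the polysome table and 4 of 26334 in the RNA immunoprecipitation (RIP) tables, and by the gene name given to each cluster in the PAR-CLIP lists. There they carried 93 of 28828 clusters for S34F U2AF1 in cytoplasm, 61 of 26613 for WT U2AF1 in cytoplasm and 222 of 92895 for WT U2AF1 in chromatin. RIP and polysome gradients were made from human bronchial epithelial cell (HBEC) lines that carry the U2AF1 S34F mutation, a U2AF1 change labelled Frame Shift (FS) or wild-type U2AF1 (WT), with 1 library per line and kind. RIP had 3 kinds of library, labelled IP (the precipitate, taken here as that of U2AF1), IgG (a control immunoglobulin) and Cytosol. The alleles behind FS and how the lines were made are not given in the sources used here. The gradient kinds were monosomes, 6 fractions with 2 to 7 ribosomes and a pooled fraction with 8 to 10. The PAR-CLIP cells were Flp-In-293, derived from human embryonic kidney, and expressed S34F or WT U2AF1 with a FLAG-HA tag. Its 2 replicates per condition are pooled in the deposited lists.

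U2AF1 is the small subunit of the factor that reads the AG dinucleotide at 3′ splice sites, where its larger partner binds the upstream pyrimidine tract. The S34F change lies in a zinc finger of U2AF1 and is known for favouring sites with C before that AG. MALAT1 gathers in nuclear speckles beside splicing factors and is itself unspliced for the most part. NEAT1 is the scaffold of paraspeckles and is transcribed close to MALAT1 on the same chromosome. KCNQ1OT1 runs antisense to the potassium channel gene KCNQ1 and silences neighbouring genes of its imprinted domain. FTX comes from the X-inactivation centre, is spliced and hosts microRNAs in its introns. In PAR-CLIP, T-to-C conversions in sequenced fragments mark where the protein was crosslinked. In polysome gradients, RNA with more ribosomes sediments further.

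Total counts ran from 2582141 to 29769968 per RIP library and from 2440145 to 13367574 per polysome library, so that 3 counts, the limit a count of 0 allows, correspond to 0.101 to 1.16 CPM (counts scaled to one common library total) and to 0.224 to 1.23 CPM. U2AF1 mRNA averaged 10.3 CPM in the 3 S34F RIP libraries, 30.9 in FS and 50.1 in WT, and 24.4, 57.8 and 44.3 CPM over the 8 gradient fractions of S34F, FS and WT. Neither the mutant base nor a frame shift can be read from gene counts. Of 10 markers of basal airway epithelium, 10 reached a mean of 1 CPM in the polysome libraries and 9 in RIP, with summed levels of 5965 to 15790 and 14380 to 55640 CPM. Of 11 markers of immune, fibroblast, endothelial and other airway cells, 6 and 4 did so, with sums of 65.4 to 230.1 and 55.8 to 180.5 CPM. Their part in the results on the lncRNAs was not tested. No expression table of Flp-In-293 cells was used here. With line as a block, the p-values below set differences between kinds of library against the spread among 3 lines of different genotype. That spread is shared by all kinds in a fit and is drawn in part from other genes. Differences in level between the lines are removed by the block. The 3 lines are the only replication.

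U2AF1 crosslinked to MALAT1, NEAT1 and FTX in all 3 PAR-CLIP lists, and to KCNQ1OT1 at 1 cluster in 1 list. In the RIP tables MALAT1 lies at chr11:65265233-65273983 and NEAT1 at chr11:65190269-65213009, both on the plus strand, KCNQ1OT1 at chr11:2629558-2721228 and FTX at chrX:73247971-73513409, both on the minus strand. The build is not given in the sources used here. The sequences that follow are the cluster with most reads on each RNA in each list that has one, as the authors deposited them, 5′ to 3′ on the transcript's strand. Capitals mark TTNCAG or TTNTAG, the letters of a pyrimidine followed by AG as at a 3′ splice site, and are absent where no match was found.
MALAT1 in S34F cytoplasm: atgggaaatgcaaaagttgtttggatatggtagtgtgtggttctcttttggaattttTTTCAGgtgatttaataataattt
MALAT1 in WT cytoplasm: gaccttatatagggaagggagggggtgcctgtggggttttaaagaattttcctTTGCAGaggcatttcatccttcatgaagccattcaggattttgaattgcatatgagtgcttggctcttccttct
MALAT1 in WT chromatin: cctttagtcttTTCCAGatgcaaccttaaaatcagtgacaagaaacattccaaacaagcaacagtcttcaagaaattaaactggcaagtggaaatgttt
NEAT1 in S34F cytoplasm: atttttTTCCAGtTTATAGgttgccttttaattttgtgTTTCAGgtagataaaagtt
NEAT1 in WT cytoplasm: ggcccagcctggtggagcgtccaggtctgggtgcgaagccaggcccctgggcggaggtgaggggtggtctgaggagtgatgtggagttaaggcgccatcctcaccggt
NEAT1 in WT chromatin: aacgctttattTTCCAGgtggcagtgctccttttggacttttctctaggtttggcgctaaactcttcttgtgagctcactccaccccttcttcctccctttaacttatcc
FTX in S34F cytoplasm: aaacattcatTTGCAGgtttttgtgtt
FTX in WT cytoplasm: atTTGCAGgtttttgtgtt
FTX in WT chromatin: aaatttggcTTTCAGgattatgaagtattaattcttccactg
KCNQ1OT1 in WT cytoplasm: tgctgcctgctggggtctcctgctgag

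The leading MALAT1 clusters lay at chr11:65269698-65269778 with 938 reads for S34F cytoplasm, at chr11:65271545-65271671 with 312 reads for WT cytoplasm and at chr11:65272112-65272210 with 1625 reads for WT chromatin, all annotated as exonic. A run of bases 6313 to 6453 of MALAT1 was the only stretch of this RNA with clusters in all 3 lists, holding 603 reads for S34F cytoplasm, 312 for WT cytoplasm and 666 for WT chromatin. The leading NEAT1 clusters lay at chr11:65197090-65197146 with 505 reads, at chr11:65190895-65191002 with 150 reads and at chr11:65191081-65191190 with 1366 reads, in the same order of lists. The WT cytoplasm cluster of NEAT1 is GC-rich and holds neither motif. The chromatin cluster of NEAT1 is annotated across an intron-exon boundary. On FTX the leading cluster of S34F cytoplasm, at chrX:73420044-73420070 with 60 reads, is intronic, and WT cytoplasm had its own leading cluster of 38 reads at the same site. The leading FTX cluster of WT chromatin, at chrX:73494219-73494260 with 368 reads, spans an intron-exon boundary. The single KCNQ1OT1 cluster, at chr11:2694326-2694352, held 8 reads, of which 2 were distinct, and is annotated as antisense.

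MALAT1 carried more reads than any other of the 4 RNAs in each list and took the largest share in S34F cytoplasm. It held 22 clusters and 4035 reads in S34F cytoplasm, 17 clusters and 1044 reads in WT cytoplasm, and 53 clusters and 10700 reads in WT chromatin. Its share of all cluster reads was 0.613% in S34F cytoplasm (95% Wilson interval 0.594 to 0.632%), 0.198% in WT cytoplasm (0.187 to 0.211%) and 0.227% in WT chromatin (0.222 to 0.231%). By reads it was the 7th of 6918 named genes in S34F cytoplasm, the 11th of 7569 in WT cytoplasm and the 15th of 9481 in WT chromatin. NEAT1 held 33 clusters with 1585 reads (0.241%, 0.229 to 0.253%) in S34F cytoplasm, 29 with 850 reads (0.162%, 0.151 to 0.173%) in WT cytoplasm and 115 with 10099 reads (0.214%, 0.210 to 0.218%) in WT chromatin. FTX held 38 clusters with 436 reads (0.0663%, 0.0603 to 0.0728%), 14 with 194 reads (0.0369%, 0.0320 to 0.0424%) and 54 with 2619 reads (0.0554%, 0.0534 to 0.0576%) in the same order. The intervals of S34F and WT cytoplasm do not overlap for any of these 3 RNAs. They cover counting error only, reads are PCR products without molecular identifiers, and 1 pooled list per condition allows no test between conditions. KCNQ1OT1 had 0 clusters in S34F cytoplasm and in WT chromatin. All 4 RNAs together took 0.920% of reads in S34F cytoplasm, 0.398% in WT cytoplasm and 0.496% in WT chromatin.

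On MALAT1, NEAT1 and FTX a larger share of reads lay in clusters with the motif than in the whole lists. Among MALAT1 reads, 76.7% in S34F cytoplasm, 45.4% in WT cytoplasm and 71.8% in WT chromatin lay in clusters with TTNCAG or TTNTAG, against 18.8%, 10.9% and 32.3% of all reads. The shares were 53.6%, 20% and 50.2% for NEAT1 and 36.5%, 31.4% and 34.8% for FTX. The FTX share in WT chromatin was thus close to that of the list. The leading cluster alone held 23.25%, 29.9% and 15.2% of MALAT1 reads and 31.9%, 17.65% and 13.5% of NEAT1 reads. For FTX it held 13.8%, 19.6% and 14.05%. Of these clusters, only that of NEAT1 in WT cytoplasm lacks the motif. Clusters on MALAT1 were longer, with medians of 52.5, 34 and 36 bases against 25, 27 and 28 bases over the lists, and a longer window holds any motif more often. Within the central 17 bases alone, 22.7%, 11.8% and 9.43% of MALAT1 clusters held it, against 12.8%, 7.33% and 10.96% of all clusters. In chromatin the share on MALAT1 was thus not above that of the list. For NEAT1 the central shares were 12.1%, 0% and 10.4%, below the list each time. For FTX they were 23.7%, 14.3% and 11.1%, above it each time. On the opposite strand the motif stood in 2 of 22 MALAT1 clusters in S34F cytoplasm. It stood in 0 of 17 in WT cytoplasm and 5 of 53 in WT chromatin. Over all clusters the shares were 5.50%, 5.50% and 7.66%. Such clusters held 25.82%, 0% and 17.93% of MALAT1 reads, against 4.646%, 4.812% and 11.64% of all reads. In S34F cytoplasm and WT chromatin the read excess on MALAT1, over whole clusters, was thus not limited to the transcript's strand. For NEAT1 the read shares were 6.688%, 9.176% and 12.02%, above the list each time. For FTX they were 4.817%, 0% and 9.393%, above it in S34F cytoplasm only. Within the central 17 bases the opposite-strand motif stood in 0 of 22, 0 of 17 and 0 of 53 MALAT1 clusters. Over all clusters these central shares were 2.79%, 2.77% and 3.45%. They were 3.03%, 3.45% and 3.48% for NEAT1 and 5.26%, 0% and 1.85% for FTX. Split by the base before AG, MALAT1 in S34F cytoplasm had 8 clusters with TTNCAG and 0 of 22 with TTNTAG. In WT cytoplasm it had 4 and 1 of 17, and in WT chromatin 15 and 4 of 53. The whole lists had 14.6% of clusters with TTNCAG and 4.32% with TTNTAG for S34F cytoplasm, 7.89% and 4.38% for WT cytoplasm and 14.0% and 7.85% for WT chromatin. These letters describe the clusters and do not show a splice site or its use.

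Clusters on MALAT1 were converted less often than those of the lists. The median share of T-to-C reads per cluster was 0.355 for MALAT1 in S34F cytoplasm, 0.333 in WT cytoplasm and 0.741 in WT chromatin, against 0.833, 0.837 and 1.00 over the lists. NEAT1 had 0.630, 0.615 and 0.875, and FTX had 0.866, 0.722 and 1.00. MALAT1 clusters also held more reads, with medians of 50.5, 31 and 58 against 9, 10 and 29 over the lists. The median reads per cluster were 15, 19 and 44 for NEAT1 and 8, 11 and 28 for FTX. Whether the share of T-to-C reads depends on reads per cluster was not tested. Along the RNAs, clusters began at base 2124 of MALAT1 in S34F cytoplasm, 1345 in WT cytoplasm and 1323 in WT chromatin and reached base 8635 in WT chromatin. On NEAT1 they ran from base 455 to base 22402, over nearly the whole length. The first 5000 bases, 22.0% of the NEAT1 span and a bound chosen after the positions were seen, held 55.3% of its reads in S34F cytoplasm, 59.8% in WT cytoplasm and 44.0% in WT chromatin. FTX clusters were intronic for the most part, 34 of 38 in S34F cytoplasm, 10 of 14 in WT cytoplasm and 42 of 54 in WT chromatin. Of the 93 clusters of S34F cytoplasm on the 4 RNAs, 42 (45.2%) overlapped a WT chromatin cluster by at least 1 base and 15 (16.1%) a WT cytoplasm cluster, against 21.3% and 9.41% of the whole S34F list. Of the 222 WT chromatin clusters, 41 (18.5%) overlapped S34F cytoplasm, against 6.70% of the whole list, and of the 61 WT cytoplasm clusters 15 (24.6%) did, against 10.2%. WT cytoplasm clusters overlapped WT chromatin in 26 of 61 cases (42.6%), against 18.2% of the whole list. Longer or more crowded clusters overlap by 1 base more often, and none of these shares was adjusted for that.

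**Figure D1:**
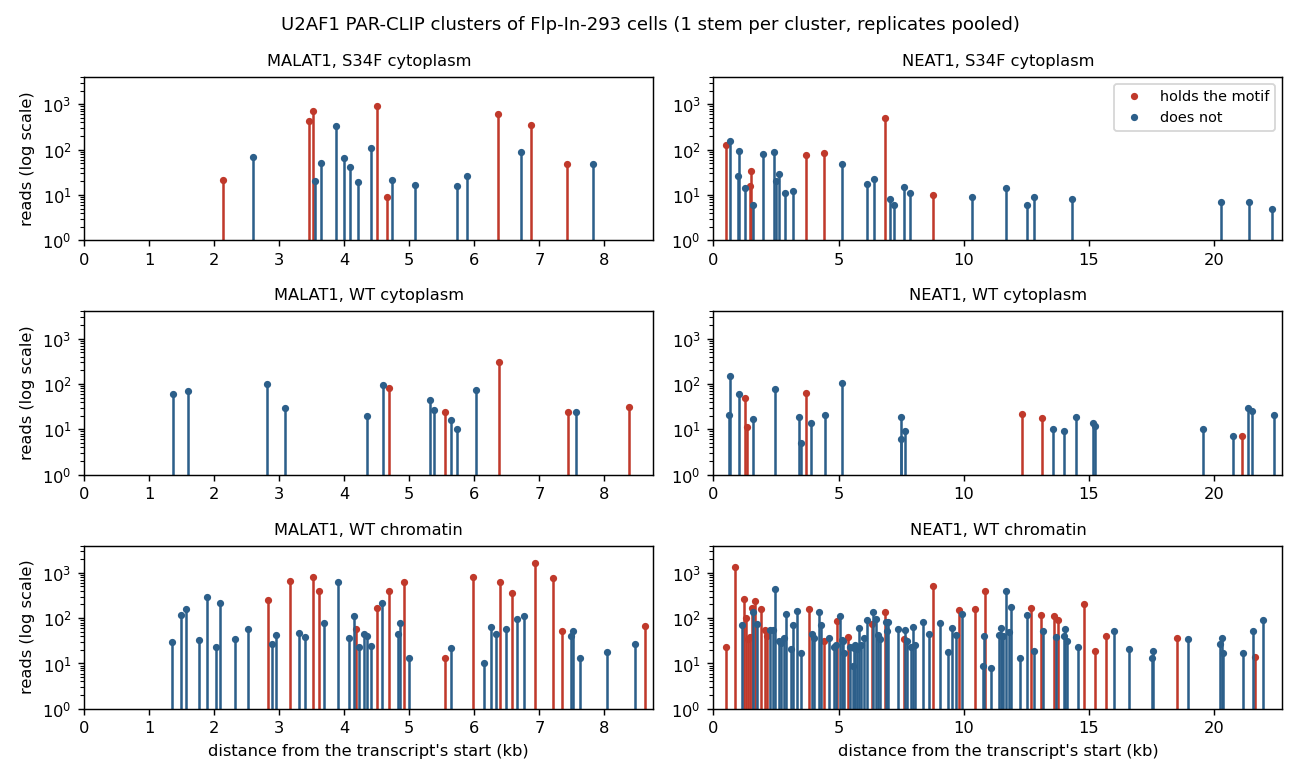
U2AF1 PAR-CLIP clusters along MALAT1 (left) and NEAT1 (right), with distance from the transcript's start in kb on the x axis and reads per cluster on a log y axis. Each stem is 1 cluster of the S34F cytoplasm, WT cytoplasm or WT chromatin list, red where it holds TTNCAG or TTNTAG and blue where it does not; the highest MALAT1 stems, at 938, 312 and 1625 reads, are red in all 3 lists.

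In RIP, MALAT1 and NEAT1 were higher in IP than in Cytosol and higher in IgG than in Cytosol, and neither was called between IP and IgG. FTX was higher in IP than in IgG and not called against Cytosol. KCNQ1OT1 was not called in any RIP comparison. All 4 RNAs passed the filter on low counts in a fit of 11612 genes. As these are bulk libraries, more cells with an RNA and more copies per cell cannot be told apart.

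MALAT1 stood at 707, 803 and 644 CPM in IP of S34F, FS and WT, against 827.5, 634 and 849 CPM in IgG and 365, 310 and 233 CPM in Cytosol. The IP and IgG values overlapped, and each precipitate lay above every Cytosol library. NEAT1 stood at 530, 698 and 574 CPM in IP of S34F, FS and WT, against 667, 875 and 1308 CPM in IgG and 130, 189.5 and 93.5 CPM in Cytosol. IP was below IgG in each line, though the groups overlapped, and both were above every Cytosol library. KCNQ1OT1 stood at 34.1, 35.5 and 12.4 CPM in IP, against 16.8, 30.04 and 30.4 CPM in IgG and 2.14, 4.40 and 7.47 CPM in Cytosol. Its IP and IgG groups overlapped, WT being the low library in IP and S34F in IgG. Both precipitates lay above every Cytosol library, and the Cytosol libraries held 30, 131 and 66 counts of KCNQ1OT1. FTX stood at 577, 513 and 511 CPM in IP, against 269, 265 and 158 CPM in IgG and 388.5, 232 and 308 CPM in Cytosol. IP lay above every IgG and every Cytosol library, while IgG and Cytosol overlapped.

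**Figure D2:**
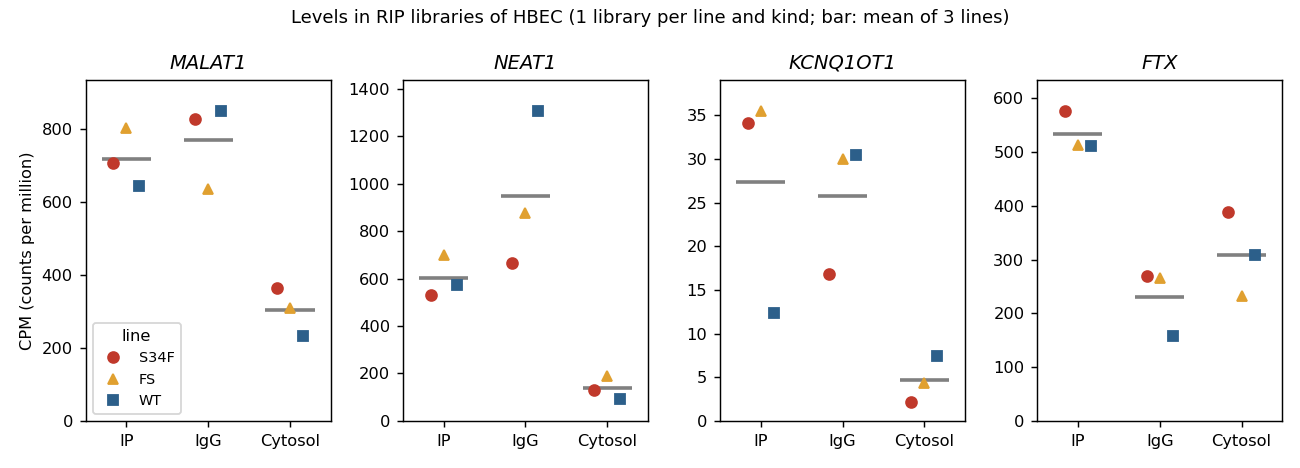
Level of each lncRNA in CPM (y axis, from 0, one scale per gene) in IP, IgG and Cytosol libraries of the S34F, FS and WT lines. Each point is 1 library and each bar the mean of 3 lines. FTX in IP, at 511 to 577 CPM, lies above all its IgG and Cytosol points. MALAT1, NEAT1 and KCNQ1OT1 each have their Cytosol points below all their IP and IgG points.

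In IP against IgG, FTX rose by 1.06 ± 0.23 log2 (SE; adjusted p = 0.0286, edgeR's quasi-likelihood test with Benjamini-Hochberg adjustment) and was higher in 3 of 3 lines. Across all genes tested 0.224% were called higher, 26 of 11612 (41 higher and 75 lower with library totals in place of TMM scaling, against 26 and 130), and 1 of the 4 lncRNAs was. That call ended without line as a block (adjusted p = 0.174 by edgeR), without S34F (0.0982) and without WT (0.247), at values of 0.88 to 1.05 log2. MALAT1 had -0.28 ± 0.20 (adjusted p = 0.617 by edgeR) and KCNQ1OT1 0.02 ± 0.74 (0.993). NEAT1 had -0.84 ± 0.26 (adjusted p = 0.152 by edgeR) and was called lower by DESeq2 (0.0284) and without the filter on low counts (0.00265), with 1.12% of genes called lower in the fit as reported. In IP against Cytosol, 2 of the 4 lncRNAs were higher, with 0.491% of genes called higher. NEAT1 rose by 2.11 ± 0.26 log2 (adjusted p = 2.0e-04 by edgeR) and MALAT1 by 1.23 ± 0.20 (0.00419), each higher in 3 of 3 lines. The MALAT1 call ended without the block (adjusted p = 0.0599 by edgeR). KCNQ1OT1 at 2.67 ± 0.82 (adjusted p = 0.350 by edgeR) and FTX at 0.77 ± 0.23 (0.277) were not called, and DESeq2 called both (0.0107 and 0.0353). In IgG against Cytosol the same 2 were higher, with 0.663% of genes called higher. NEAT1 rose by 2.95 ± 0.27 log2 (adjusted p = 3.9e-06 by edgeR) and MALAT1 by 1.51 ± 0.20 (4.0e-04). KCNQ1OT1 had 2.64 ± 0.79 (adjusted p = 0.271 by edgeR; 0.00911 by DESeq2) and FTX -0.28 ± 0.23 (0.846). The comparisons share libraries, so their values are not independent of each other.

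Per counted length, FTX had the highest value of the 4 RNAs in IP and Cytosol. Which reads the FTX counts hold was not tested, and their likeness to RPSA counts is given below. The authors' RPKM (reads per length and library total) of FTX averaged 53.2 ± 4.86 in IP, 20.8 ± 8.77 in IgG and 40.6 ± 9.34 in Cytosol (SD, n = 3 lines each). MALAT1 averaged 19.2 ± 1.16, 18.3 ± 5.42 and 10.7 ± 2.04 RPKM, NEAT1 6.204 ± 0.651, 8.34 ± 1.59 and 1.88 ± 0.666, and KCNQ1OT1 0.0692 ± 0.0312, 0.0558 ± 0.00776 and 0.0160 ± 0.00948, in the same order. The ranges of neighbours in this order overlapped only for FTX (11.8 to 29.3) and MALAT1 (13.7 to 24.3) in IgG. The counted length was 2356 bases for FTX, its exons, and 8751, 22641 and 91550 bases for MALAT1, NEAT1 and KCNQ1OT1.

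Of 17 other nuclear lncRNAs listed for RIP, 8 could be tested, and 0 were called in any of the 3 comparisons by edgeR, with 0, 1 and 2 at an unadjusted p under 0.05 and 0, 1 and 1 called by DESeq2 in IP against IgG, IP against Cytosol and IgG against Cytosol. They had median log2 values of 0.22 in IP against IgG, 0.70 in IP against Cytosol and 0.44 in IgG against Cytosol, where all genes had medians of 0.03, -0.07 and -0.11. Their summed level was 108, 153 and 95.6 CPM in IP of S34F, FS and WT, against 85.5, 84.9 and 159.8 CPM in IgG and 66.9, 62.4 and 75.3 CPM in Cytosol. Among 11 cytoplasmic lncRNAs tested, LINC00657, known as NORAD and a decoy for Pumilio proteins, rose by 1.097 ± 0.25 log2 in IP against IgG (adjusted p = 0.0397 by edgeR) and by 1.28 ± 0.25 in IP against Cytosol (0.0221). Among 10 small nuclear and nucleolar RNAs tested, 3 were lower in IP than in IgG and 4 higher in IgG than in Cytosol. Over all genes 1.12% and 0.663% were called so. SCARNA12, a Cajal body RNA, fell by 2.56 ± 0.42 log2 in IP against IgG and rose by 2.55 ± 0.42 in IgG against Cytosol, and SCARNA2 fell by 1.78 ± 0.28 and rose by 2.18 ± 0.28 (adjusted p = 0.00535, 0.00334, 0.00362 and 2.2e-04 by edgeR). Some of these small RNAs share reads with a host gene. Of 21 paraspeckle protein mRNAs, 18 speckle protein mRNAs and 10 mRNAs of MALAT1 and NEAT1 end processing or RNA methylation, 0 were called in any RIP comparison by edgeR. At an unadjusted p under 0.05 edgeR had 3, 4 and 0 paraspeckle, 3, 1 and 2 speckle and 1, 0 and 1 processing genes in the same order of comparisons, and DESeq2 called 1 processing gene in IP against IgG and 1 in IgG against Cytosol and 0 of the others.

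In the gradients, FTX and KCNQ1OT1 fell most between monosomes and the heaviest polysomes, NEAT1 less, and MALAT1 showed no called change. In 8-10 ribosomes against monosomes 3 of the 4 lncRNAs were lower, beside 21.6% of the 15945 genes tested, and 0 were higher, beside 28.3%. FTX was lower in the 8-10 fraction in each line by a similar factor. KCNQ1OT1 had the widest swings between neighbouring fractions, and MALAT1 followed a different course in each line. CPM gives each fraction the same total, so the amount of RNA per fraction is lost and a level is a share of the fraction's RNA.

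FTX stood at 79.3, 55.3 and 68.1 CPM in the 8-10 fraction of S34F, FS and WT, against 423, 305 and 395 CPM in monosomes. The 2 groups did not overlap, and monosomes held 5.33, 5.51 and 5.80 times the 8-10 level. Its means over the 3 lines, from monosomes through 2 to 7 ribosomes to 8-10, were 374, 370, 329, 222, 265, 167, 121 and 67.6 CPM. KCNQ1OT1 stood at 592, 1118 and 1223 CPM in the 8-10 fraction, against 4740, 4210 and 3576 CPM in monosomes, and these groups did not overlap either. Between the ends it stood in 4 ribosomes at 5060 CPM in S34F, 1155 CPM in FS and 8403 CPM in WT, the peak of the gradient in S34F and WT. In WT it stood at 6921 CPM in 2 ribosomes and at 1614 CPM in 3 ribosomes. NEAT1 stood at 453.5, 277 and 169 CPM in the 8-10 fraction of S34F, FS and WT, against 956, 604 and 298 CPM in monosomes. The groups overlapped because WT was low throughout, and each line was lower in the 8-10 fraction. MALAT1 stood at 3151, 896 and 831 CPM in the 8-10 fraction, against 2486, 1337 and 1199 CPM in monosomes. S34F was higher there and FS and WT lower. In FS, MALAT1 peaked at 6121 CPM in 4 ribosomes, 6.83 times its lowest fraction, while S34F ranged from 1368 to 3151 CPM and WT from 604 to 1735 CPM.

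**Figure D3:**
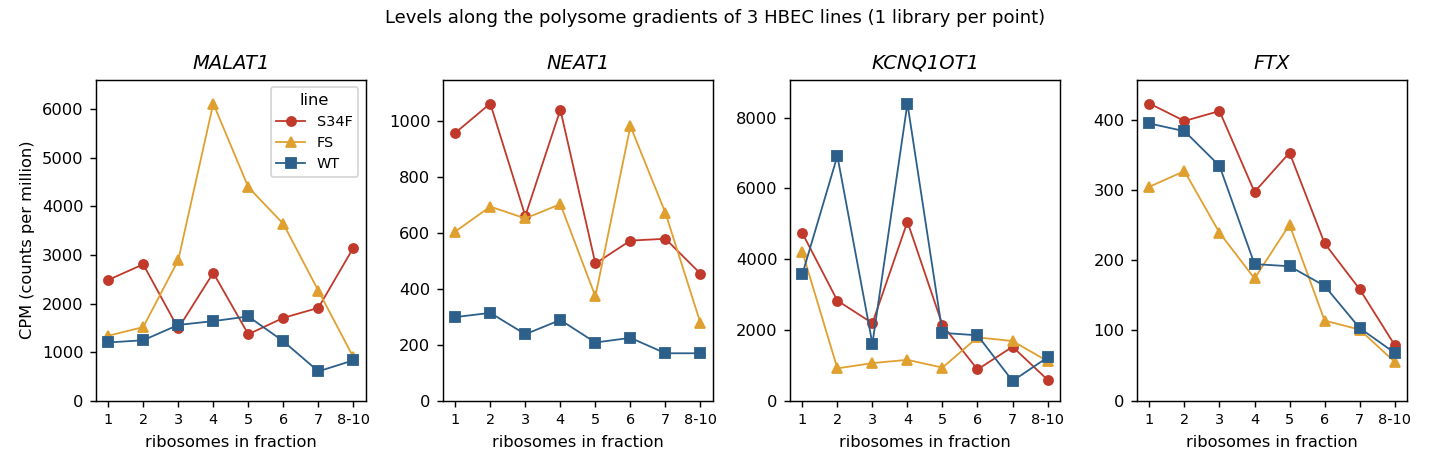
Level of each lncRNA in CPM (y axis, from 0, one scale per gene) by the number of ribosomes in the fraction (x axis, 1 for monosomes), for the S34F, FS and WT lines, with 1 library per point. FTX declines in all 3 lines to 55.3 to 79.3 CPM in the 8-10 fraction, while MALAT1 peaks at 6121 CPM in FS alone and KCNQ1OT1 at 8403 CPM in WT.

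In 8-10 ribosomes against monosomes, FTX fell by 2.33 ± 0.29 log2 (adjusted p = 8.3e-06, edgeR's quasi-likelihood test with Benjamini-Hochberg adjustment), KCNQ1OT1 by 1.91 ± 0.54 (0.00533) and NEAT1 by 0.85 ± 0.29 (0.0187), each lower in 3 of 3 lines. MALAT1 had -0.04 ± 0.44 (adjusted p = 0.943 by edgeR). The KCNQ1OT1 call ended without S34F (-1.47, adjusted p = 0.0840 by edgeR). The NEAT1 call ended without the block (adjusted p = 0.231 by edgeR), without the filter (0.0874), without S34F (0.134) and without FS (0.101). In 6 and 7 against 2 and 3 ribosomes, FTX fell by 1.21 ± 0.20 (adjusted p = 7.3e-05 by edgeR), the 1 of 4 called, with 12.8% of genes lower. KCNQ1OT1 had -0.55 ± 0.37 (adjusted p = 0.272 by edgeR, and 0.0189 without FS, at -1.22), NEAT1 -0.14 ± 0.21 (0.636) and MALAT1 -0.08 ± 0.31 (0.860). In 2 and 3 ribosomes against monosomes 0 of 4 were called by edgeR or by DESeq2, with 3.13% of genes called in either direction (471 higher and 28 lower, or 394 and 118 with library totals) and 0 of the 4 at an unadjusted p under 0.05 by edgeR. Their values were 0.41 ± 0.39 for MALAT1, 0.16 ± 0.25 for NEAT1, -0.77 ± 0.44 for KCNQ1OT1 and 0.10 ± 0.24 for FTX. A test of any difference among the 8 fractions called FTX (adjusted p = 2.0e-06 by edgeR) and KCNQ1OT1 (0.0334), with 59.7% of genes called. NEAT1 (0.0529) and MALAT1 (0.353) were not called there, NEAT1 was called by DESeq2 (1.1e-04), and the KCNQ1OT1 call ended without the block (0.0932), without S34F (0.150) and without WT (0.172). MALAT1 was called without S34F (0.0116).

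**Figure D4:**
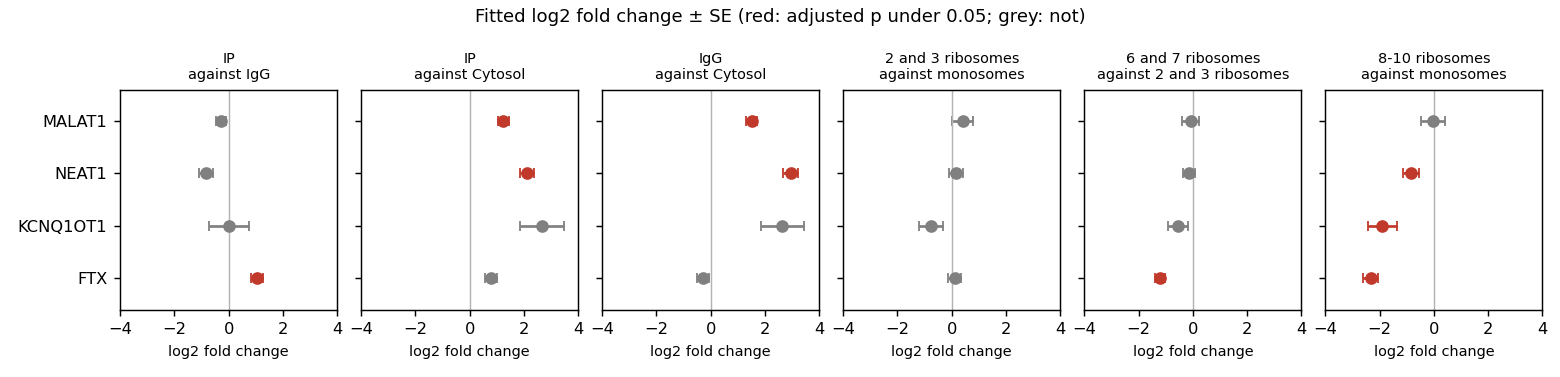
Fitted log2 fold changes (x axis) with SE bars for the 4 lncRNAs in 6 comparisons, 3 of RIP kinds and 3 along the gradient, red where the adjusted p was under 0.05. NEAT1 and MALAT1 are red in both comparisons with Cytosol, FTX in IP against IgG at 1.06, and FTX, KCNQ1OT1 and NEAT1 in 8-10 ribosomes against monosomes.

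The ribosome index, the CPM-weighted mean ribosome number with 9 for the 8-10 fraction, gave the same order. It was 4.49 ± 0.22 for MALAT1, 4.17 ± 0.19 for NEAT1, 3.65 ± 0.28 for KCNQ1OT1 and 3.52 ± 0.13 for FTX (SD, n = 3 lines), against a median of 4.84 ± 0.09 over 9501 genes. MALAT1 and NEAT1 overlapped (4.25 to 4.67 and 4.00 to 4.38), as did KCNQ1OT1 and FTX (3.47 to 3.97 and 3.39 to 3.66). In S34F, FS and WT, 8.9%, 1.2% and 1.5% of genes had a lower index than FTX, and 35.6%, 34.4% and 26.0% had a lower one than MALAT1.

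Of 12 other nuclear lncRNAs tested, 8 were lower and 0 higher in the 8-10 fraction, and the list's median was -2.06 log2 against 0.08 over all genes. Over all genes 21.6% were lower and 28.3% higher in that fraction. NUTM2A-AS1 fell by 2.59 ± 1.00, the imprinted MEG3 by 2.36 ± 0.41, CRNDE by 2.20 ± 0.50 and PVT1, a neighbour of MYC, fell by 2.16 ± 0.25 (adjusted p = 0.0342, 1.1e-04, 0.00102 and 3.6e-06 by edgeR). Of 11 cytoplasmic lncRNAs, 9 were lower, with a median of -2.002, and SNHG5, a snoRNA host whose reads can be shared with those snoRNAs, fell by 3.54 ± 0.41 (3.6e-06 by edgeR). Of 11 small nuclear and nucleolar RNAs, 9 were lower, with a median of -3.47, and RPPH1, the RNA of the RNase P that cuts the MALAT1 3′ end, fell by 5.40 ± 0.52 (1.2e-06 by edgeR). In 2 and 3 ribosomes against monosomes 1 of 12 other nuclear lncRNAs and 3 of 11 cytoplasmic lncRNAs were higher and 2 of 11 small nuclear and nucleolar RNAs were lower, with 0 called in the opposite direction by edgeR. Over all genes 2.95% were higher and 0.176% lower in this comparison. SNHG6 rose by 2.001 ± 0.39 and CRNDE by 2.04 ± 0.42, while RMRP fell by 1.73 ± 0.45 and RPPH1 by 1.65 ± 0.36 (adjusted p = 0.00634, 0.00944, 0.0333 and 0.0110 by edgeR).

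In 8-10 ribosomes against monosomes, of 7 markers of other cell types tested, 3 were lower and 0 higher, with a median of -1.57 log2, and of 10 basal airway markers 5 were higher and 0 lower, with a median of 0.88. Over all genes 21.6% were lower and 28.3% higher. The part of these markers in the results on lncRNAs was not tested.

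Of 21 paraspeckle protein mRNAs, 16 were higher in the 8-10 fraction and 0 lower, beside 28.3% of all genes higher, with a median of 1.07 log2. TAF15 rose by 2.49 ± 0.35, TARDBP by 2.01 ± 0.29, FAM98A by 1.96 ± 0.34 and HNRNPH3 by 1.95 ± 0.41 (adjusted p = 1.9e-05, 2.6e-05, 1.3e-04 and 5.6e-04 by edgeR). SFPQ, a core paraspeckle protein that binds NEAT1 and was named after its value was seen, rose by 0.93 ± 0.27 (adjusted p = 0.00714 by edgeR). Without FS, 11 of the 21 were higher. Of 18 speckle protein mRNAs 5 were higher and 1 lower, a share of higher calls near that of all genes. U2AF1 itself rose by 1.73 ± 0.42 and the splicing factor SRSF3 by 1.503 ± 0.30, and the cyclin CCNL2 fell by 1.29 ± 0.38 (adjusted p = 0.00192, 3.6e-04 and 0.00814 by edgeR). Of 10 mRNAs of MALAT1 and NEAT1 end processing or RNA methylation 4 were higher, among them the RNase P subunit RPP40 at 2.03 ± 0.52 and the methyladenosine reader YTHDC1 at 1.24 ± 0.32 (adjusted p = 0.00266 and 0.00274 by edgeR). Of 6 genes tested in the KCNQ1 domain 3 were higher, CD81 at 2.18 ± 0.33, PHLDA2 at 1.92 ± 0.46 and NAP1L4 at 1.13 ± 0.28 (adjusted p = 3.5e-05, 0.00155 and 0.00224 by edgeR).

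The KCNQ1OT1 entry held a far larger share of counts in the gradient libraries than in the RIP libraries. Which reads it counted was not tested. It ranked 28th by mean CPM of 21530 genes in the polysome table and 6004th of 26334 in RIP. Its mean over the gradient fractions was 1166, 366 and 436 times its Cytosol level in S34F, FS and WT, the largest ratio of 10299 genes compared. The ratios for MALAT1 were 6.01, 9.31 and 5.38, for NEAT1 5.57, 3.27 and 2.55 and for FTX 0.755, 0.843 and 0.745. The polysome and RIP tables were normalized separately and hold separate preparations, so these ratios are a description. KCNQ1OT1 also lies antisense to KCNQ1, and whether the counting used strand is not given in the sources used here.

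Across the 24 polysome libraries KCNQ1OT1 ran in a nearly fixed ratio to a set of other genes. The 5 genes most like it in log2 CPM, centred on each line, among 9977 genes with a mean of at least 10 CPM, were UGDH-AS1 (Pearson r = 0.999), the replication origin factor ORC4 (0.997), ANKRD20A9P (0.997), XKR9 (0.996) and SHISA9 (0.995). The ratio of KCNQ1OT1 to UGDH-AS1 CPM stayed within 1.56 to 1.80 in the 24 libraries, while KCNQ1OT1 varied from 559 to 8403 CPM. In the 9 RIP libraries the same ratio ran from 1.2 to 14.7. For FTX the genes most like it were RPSAP9 (0.975), the ribosomal protein genes RPSA (0.973), RPS2 (0.968) and RPLP0 (0.950), and ANKRD9 (0.937). The ratio of FTX to RPSA was 0.0565 to 0.110 in the polysome libraries and 0.0639 to 0.118 in RIP. RPSAP9 and ANKRD20A9P are pseudogenes, whose reads can be shared with related genes. In 8-10 ribosomes against monosomes, RPSA fell by 2.53 ± 0.35 log2, RPSAP9 by 2.48 ± 0.33 and RPLP0 by 2.47 ± 0.36, beside 2.33 for FTX (adjusted p = 1.9e-05, 1.3e-05 and 2.8e-05 by edgeR). UGDH-AS1 fell by 1.93 ± 0.55 and ORC4 by 1.91 ± 0.55, beside 1.91 for KCNQ1OT1 (adjusted p = 0.00574 and 0.00626 by edgeR). In IP against IgG, RPLP0 rose by 0.79 ± 0.12 (adjusted p = 0.00283 by edgeR), and RPSA at 0.49 ± 0.12 (0.0624) and RPSAP9 at 0.47 ± 0.15 (0.176) were not called, beside FTX at 1.06. RPS2 at 0.19 ± 0.12 (adjusted p = 0.566 by edgeR) and ANKRD9 at 1.92 ± 0.91 (0.390) were not called either. Which reads the FTX and KCNQ1OT1 counts hold was not tested. MALAT1 had no such partner, its highest values being ZNF652 (0.895), the endosomal GTPase RAB22A (0.840), PIAS2 (0.811), RC3H2 (0.806) and ZNF146 (0.806). NEAT1 had TMEM198B (0.799), WDR27 (0.792), PMS2P9 (0.786) and GUSBP4 (0.785). Among the 4 lncRNAs the pairs ranged from -0.155 for MALAT1 with KCNQ1OT1 to 0.562 for NEAT1 with FTX. All these values share libraries and depth and are given as a description.

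**Figure D5:**
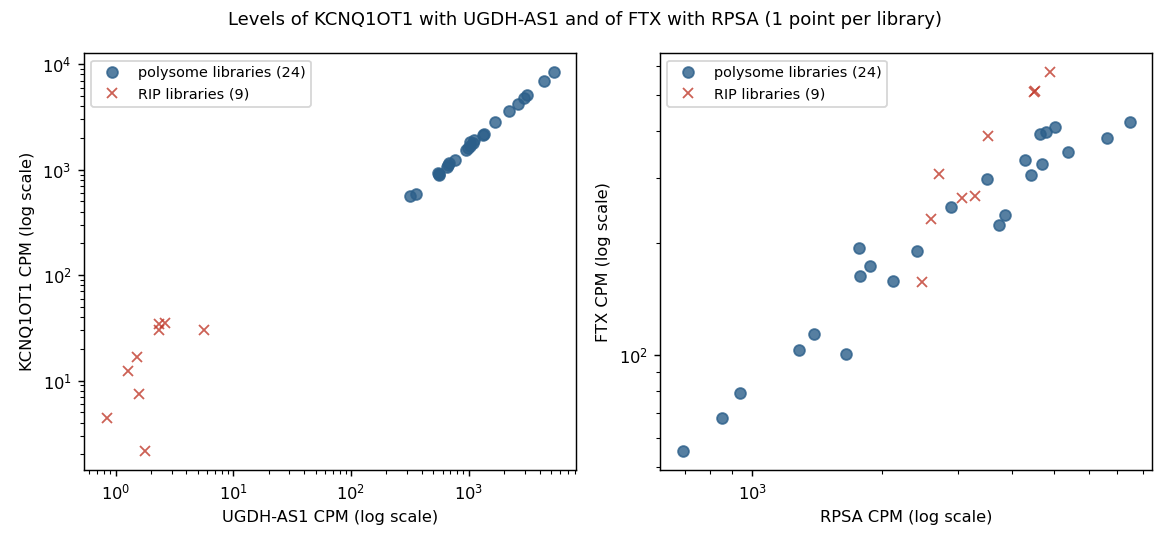
CPM of KCNQ1OT1 against UGDH-AS1 (left) and of FTX against RPSA (right), on log axes, with 1 point per library, circles for 24 polysome libraries and crosses for 9 RIP libraries. The KCNQ1OT1 circles fall on a line at ratios of 1.56 to 1.80 and the crosses do not, while FTX and RPSA keep ratios of 0.0565 to 0.118 in both assays.

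Between lines, levels are given side by side without a test, since each line and kind has 1 library. NEAT1 averaged 726, 619 and 239 CPM over the gradient fractions of S34F, FS and WT, and each S34F fraction (453.5 to 1061 CPM) was above each WT fraction (169 to 313.5 CPM). In Cytosol NEAT1 was also lowest in WT, at 93.5 CPM, but in IgG it was highest there, at 1308 CPM. MALAT1 averaged 2194, 2883 and 1255 CPM over the fractions of S34F, FS and WT, KCNQ1OT1 2495, 1609 and 3258 CPM and FTX 293, 196 and 229 CPM. Fractions of 1 gradient are not replicates of a line.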

How the data were processed

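PAR-CLIP (6 samples), RIP-seq (9) and polysome RNA-seq (24) made up the 39 samples. The authors deposited counts per gene symbol for polysome and RIP libraries, RPKM values for RIP, and whole-number read counts and a T-to-C fraction per PAR-CLIP cluster. TopHat, with no version, is the only tool in the submitters' processing notes. Counting tool, strand use and build are not given in the sources used here. Of the deposited expected counts, 57.4% of polysome and 26.2% of RIP values were not whole and were rounded. Among polysome entries, 28 named as dates, at most 0.218% of a library's counts, and 45 repeated entries were dropped, in RIP 119 repeated ones. The library total behind the authors' RPKM was 3.15 to 5.68 times the summed counts.

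Tests were run in R 4.3.3 with edgeR 4.0.16 on limma 3.58.1 (filterByExpr, TMM, quasi-likelihood, Benjamini-Hochberg over all genes tested, adjusted p under 0.05), 1 fit over 9 RIP and 1 over 24 polysome libraries, with line as a block. The common dispersion was 0.487 and 0.108. Libraries are paired because they come from 1 line. Deviations from the means of the kinds correlated within a line at a median r of 0.064 in RIP (0.024 to 0.133) and 0.346 in the gradients (-0.251 to 0.765). The scripts were tested on simulated data. Alternatives were no block, DESeq2 1.42.0, other scalings, no filter, summed symbols and each line left out, and for PAR-CLIP stricter cluster minimums. Counting distinct reads was added after seeing the data. Cluster overlap needed 1 base. Motifs were searched on both strands. Genes named from lists were the called ones with the largest change, at most 4 per list and comparison, and genes most like a lncRNA the 5 with the highest correlation. Results on some genes these rules name are not reported here. The 4 lncRNAs and the lists were chosen with earlier results of these data known.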

Additional observations from a re-analysis of the deposited data

Results flagged for a closer look

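In 10 cases the 3 lines, S34F, FS and WT, did not move in the same direction. Each line has 1 library per kind, so these differences were not tested. The gap given is the log2 value of the highest line minus that of the lowest.

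In IP against IgG, MALAT1 was higher in FS and lower in S34F and WT, a gap of 0.738. KCNQ1OT1 was higher in S34F and FS and lower in WT there, a gap of 2.318. In IgG against Cytosol, FTX was higher in FS and lower in S34F and WT, a gap of 1.156. In 8-10 ribosomes against monosomes, MALAT1 was higher in S34F and lower in FS and WT, a gap of 0.92.

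In 2 and 3 ribosomes against monosomes, MALAT1 was lower in S34F and higher in FS and WT (gap 0.933). NEAT1 was higher in FS and lower in S34F and WT (gap 0.306), and KCNQ1OT1 higher in WT and lower in S34F and FS (gap 2.346). In 6 and 7 against 2 and 3 ribosomes, MALAT1 (gap 1.039), NEAT1 (gap 0.879) and KCNQ1OT1 (gap 2.642) were each higher in FS and lower in S34F and WT.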

How the results depend on the processing

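Of the summary values, 80 kept their side of the threshold or stayed near the reported value and 19 moved. Of the values for single lncRNAs, 219 kept direction and call, 12 lost a call, 11 gained one and 10 reversed. Of the 4 lncRNAs, 1 was called in IP against IgG, but 0 without the replicate block, 2 by DESeq2, 2 without the filter and 0 to 1 with a line left out (0 without S34F and 0 without WT). In IP against Cytosol 2 were called, 1 without the block and 4 by DESeq2. In 8-10 ribosomes against monosomes 3 were called, and 1 to 3 with a line left out (1 without S34F). In 6 and 7 against 2 and 3 ribosomes 1 was called, and 1 to 2 with a line left out (2 without FS). Among all 8 fractions 2 were called, and 1 without the block. Reversed values were uncalled. KCNQ1OT1 in IP against IgG had -0.07351 without the block and -0.6278 to 0.5271 with a line left out (-0.6278 without S34F, -0.015 without FS). MALAT1 in 8-10 ribosomes against monosomes had 0.01784 without the block, 0.2505 without the filter and -0.3063 to 0.09586 with a line left out (0.06106 without WT, 0.09586 without FS), and -0.3479 to 0.09816 in 6 and 7 against 2 and 3 ribosomes (0.09816 without WT). With library totals, NEAT1 had -0.06243 and FTX -0.108 in 2 and 3 ribosomes against monosomes, where the median of all genes was -0.223. The cause was not tested.

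The share of PAR-CLIP reads on the 4 RNAs was 1.044% (at least 10 reads per cluster), 1.248% (20 reads) and 1.138% (3 conversion positions) for S34F cytoplasm. For WT cytoplasm it was 0.455%, 0.5267% and 0.4972%, and 0.4312% with distinct reads, and for WT chromatin 0.5278% (20 reads) and 0.6445% (3 positions).

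Over all genes, 156 were called in IP against IgG, but 32 without the block, 633 by DESeq2, 352 without the filter and 17 to 207 with a line left out. In IP against Cytosol 62 were called, but 36, 160 and 153 under the first 3 of these, and in IgG against Cytosol 79, but 223 by DESeq2, 197 without the filter and 139 without S34F. Along the gradient, 8-10 ribosomes against monosomes had 7962 calls and 5244 without the block. In 2 and 3 ribosomes against monosomes there were 499, but 3 without the block, 1019 by DESeq2, 797 without the filter and 0 to 313 with a line left out. In 6 and 7 against 2 and 3 ribosomes there were 5349, but 3156 without the block and 2384 without WT, and among all fractions 9518, but 6291 without the block and 6321 without WT. KCNQ1OT1 in RIP rests on 30 to 131 counts per library.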
